A study of Mus musculus with 8 samples.

Results

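Genes of the Kelch-like family were followed through gastrocnemius, a calf muscle, of tumour-bearing and tumour-free mice. Members were all rows whose symbol is Klhl or Kbtbd followed by a number: 46 of the 23282 rows in each count table, 37 of them Klhl and 9 Kbtbd. Of these, 37 passed the filter on low counts (29 Klhl and 8 Kbtbd), among 13174 genes tested. The rule used symbols and did not use differences between groups.

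Kelch-like proteins carry a BTB domain, which binds the scaffold protein cullin-3, and a Kelch propeller, which holds a substrate. In this way each acts as the substrate adaptor of a ubiquitin ligase, the kind of enzyme that tags proteins for degradation or for a change of function. Several members are made mainly in striated muscle, where they act on proteins of the contractile filaments, and mutations of some of them (KLHL40, KLHL41 and KBTBD13) cause nemaline myopathy in people. A number of these muscle proteins stabilise their partner instead of removing it.

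The series holds 8 libraries of C57BL/6 mice, made from 500 ng of RNA with a Lexogen QuantSeq kit, which reads the 3' ends of transcripts. By their titles, 3 Normal libraries came from mice injected under the skin with 100 µl of saline and given 200 µl of distilled water by mouth. The 3 Control libraries came from mice injected with 1000000 Lewis lung carcinoma cells, a mouse lung tumour line, and given the same water. For the 2 RP libraries, mice with the same tumour received 100 mg/kg of Paeonia lactiflora, a peony, extracted in 30% ethanol, in place of water. Tumours grew for 2 weeks before the mice were regrouped by tumour size, and dosing was daily for 2 weeks. The labels list 4 weeks as the age, which is not taken here as the age at dissection. They do not say whether libraries are separate animals, so the p-values reflect only how far these samples spread, which may be technical.

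The labels of 6 libraries conflict: every deposited table of a Normal or Control sample carries the other group's name. Groups are given here by title, and if the table names hold, every difference between Control and Normal turns its sign and the 2 comparisons with RP exchange places. The ubiquitin ligases Fbxo32 and Trim63, known for their rise in muscle atrophy, were higher in the Normal-titled libraries: Fbxo32 was at 718, 1248 and 1463 CPM there (counts scaled by library size and by TMM factors to a fixed total per library), at 174, 172 and 151 in Control and at 399.9 and 404 in RP, with a log2 difference Control minus Normal of -2.79 (SE 0.227, adjusted p = 2.49e-05).

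Libraries held 9528011 to 12333767 counts, of which the members took 0.142 to 0.213%. All 9 markers of skeletal muscle fibres were present in every library (at least 66.1 CPM each). The 7 erythroid markers in the tables summed to 29540 to 161600 CPM in Normal, 9121 to 11640 in Control and 6397 to 27700 in RP, and all 7 were lower in Control than in Normal. Neutrophil markers (8 genes) summed to 939.8 to 1950 CPM in Normal, 11.6 to 20.8 in Control, where 1 of them was at 0 in every library, and 34.9 to 495.2 in RP, and all 8 were lower in Control than in Normal. Of the 8 fibroblast and tendon markers, 4 were higher in Control, with sums of 5461 to 9096 CPM in Normal, 9183 to 10080 in Control and 7999 to 8311 in RP. Of the 10 fast-fibre markers, 3 were higher in Control than in Normal, and of the 9 slow-fibre markers 0 passed in either direction. The 5 satellite-cell markers summed to 52.2 to 65.2 CPM in Normal, 40.6 to 45.6 in Control and 42.8 to 44.5 in RP, and 1 of them, Myod1, was lower in Control (log2 change -1.89, SE 0.222, adjusted p = 0.000197). Of the 6 endothelial markers, with sums of 375.7 to 431.2 CPM in Normal, 330.7 to 420.5 in Control and 352.5 to 381.3 in RP, 1 was lower in Control (Vwf, log2 change -0.95, SE 0.202, adjusted p = 0.00932), and of the 6 macrophage markers 0 passed. In whole muscle, fewer cells of a type and less RNA per cell cannot be told apart.

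Between the libraries titled Control (tumour-bearing by title) and Normal (tumour-free by title), 7 of the 37 tested members passed an adjusted p of 0.05. The edgeR quasi-likelihood test was used, with Benjamini-Hochberg adjustment over all 13174 genes. The 7 are 18.9% of the members, against 10.4% of all genes tested. Of the 37, 4 were lower in Control (Klhl30, Klhl38, Klhl40 and Klhl24; 5.45% of all genes were lower), and 3 were higher (Klhl31, Kbtbd13 and Klhl23; 4.99% of all genes were higher). The median log2 change of the members was -0.12, against 0.0004 for all genes, with 15 members above 0 and 22 below. The median size of the change regardless of sign was 0.38 for members and 0.29 for all genes. In 16 members (43.2%) the Control and Normal libraries did not overlap, against 31.3% of all genes: 7 lay higher in Control (16.6% of all genes) and 9 lower (14.7%). No test of the family as a whole was made.

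**Figure D1:**
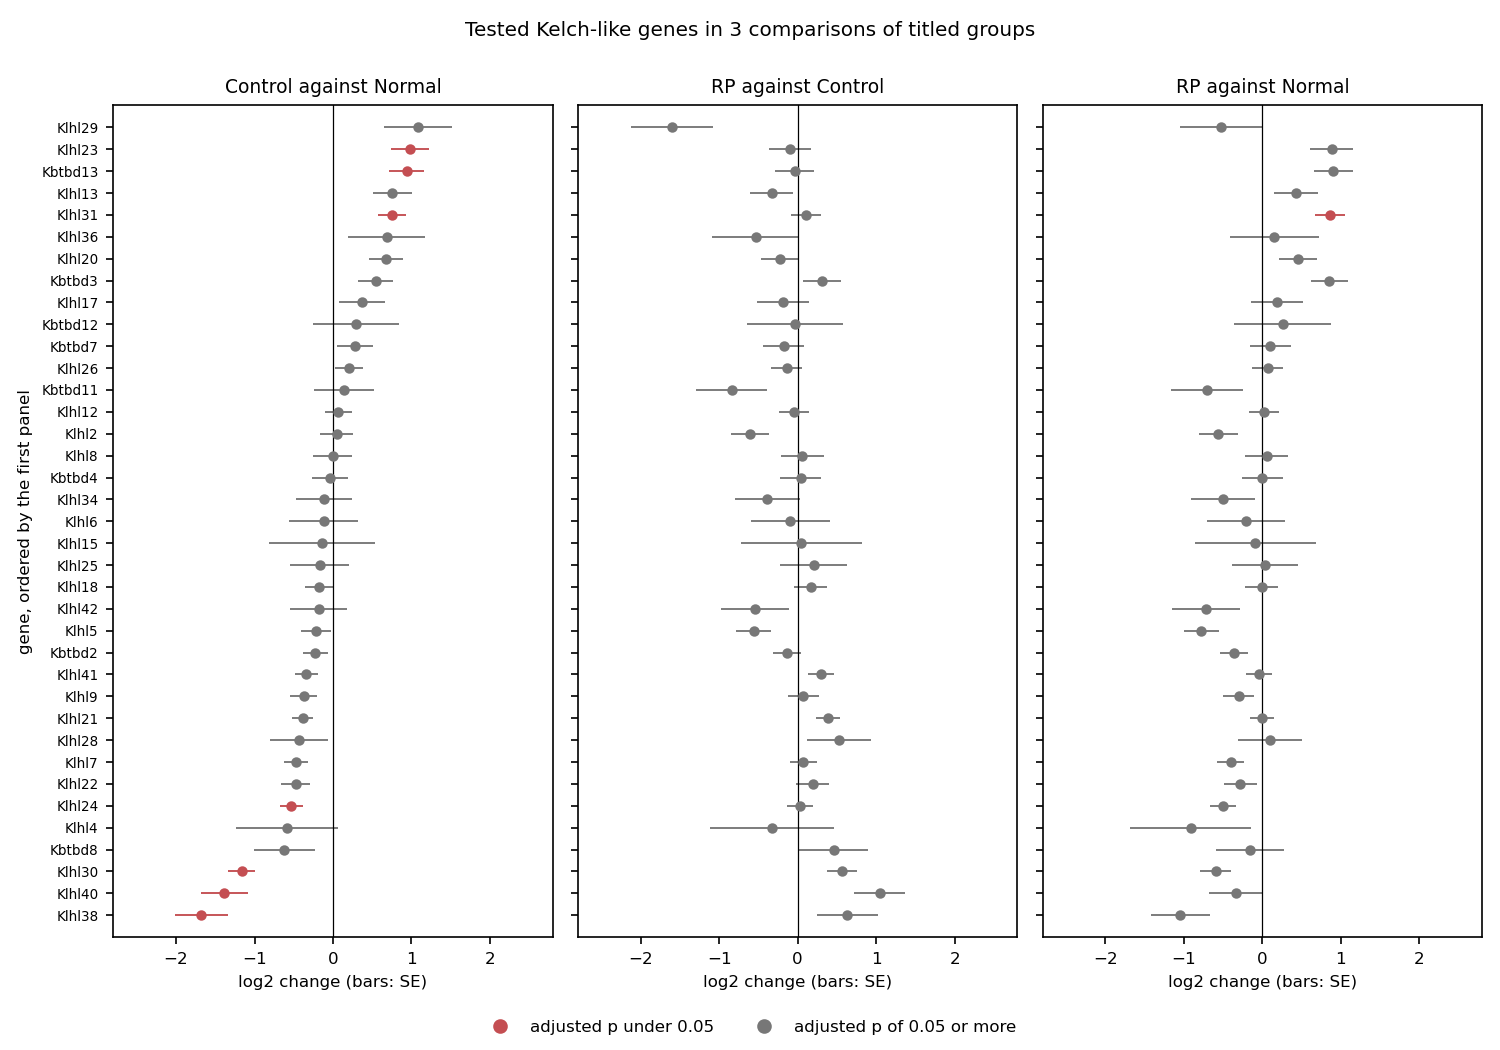
Log2 change with its standard error (horizontal axis) of the 37 tested members (vertical axis, ordered by Control against Normal) in the 3 comparisons of titled groups; red points have an adjusted p under 0.05. The first panel holds 7 red points on both sides of 0 between -1.68 and 0.98, the second holds 0 and the third holds 1, Klhl31.

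With the log2 of summed haemoglobin CPM as a covariate, 0 of the 37 members passed (7 with an unadjusted p under 0.05), and 2.35% of all genes did. Haemoglobin took 4.57 to 19.7% of counts in Normal, 1.41 to 1.61% in Control and 0.862 and 3.83% in RP. Every Normal library lay above every other library, so this covariate and the difference from Normal cannot be told apart. In that fit each of the 7 kept its sign, with log2 changes between -1.76 for Klhl40 and 1.02 for Kbtbd13. Klhl23 was at 0.15, where it had been at 0.98. The part of the neutrophil, fibroblast, satellite-cell, endothelial and fibre-type markers in these differences was not tested. Leaving out a library changed the count: 5 members passed without Normal replicate 2, 3 without Control replicate 1, 4 without Control replicate 2 and 3 without Control replicate 3. The share of all genes passing was lower in these 4 fits too, between 4.65 and 6.44%. Without Normal replicate 1, 9 members and 14.2% of all genes passed, and without Normal replicate 3, 6 members and 11.5%.

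Members made mainly in striated muscle made up 5 of these 7 calls. Of 9 such genes listed, 8 were tested, 3 were lower in Control (Klhl30, Klhl38 and Klhl40), 2 were higher (Klhl31 and Kbtbd13), and Klhl41, Klhl34 and Kbtbd12 did not pass. Over all genes tested, 5.45% were lower and 4.99% higher, and the list was chosen with earlier results of these data known. The median log2 change over the 8 was -0.23. The muscle members thus did not move in 1 direction.

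Klhl38 (chromosome 15, 58314573 to 58324169, reverse strand, RefSeq GRCm38.p6), a muscle Kelch gene, had the largest change of any called member. Its level was 5.85, 4.40 and 6.70 CPM in the Normal libraries, 2.21, 1.80 and 1.27 in Control and 2.69 and 2.78 in RP. These values rest on 65, 46 and 69 counts in Normal, 25, 18 and 14 in Control and 25 and 27 in RP. With a minimum mean CPM of 5 the gene was not tested. All 3 Control libraries lay below all 3 Normal libraries, and both RP libraries lay between them. The log2 difference, Control minus Normal, was -1.68 (SE 0.337, adjusted p = 0.00684). The gene lies 99.7 kb from Fbxo32, which was also lower in Control, and a link between position and direction was not tested. An exon of Gm15943 on the other strand overlaps Klhl38, and since the strand counted is not given in the sources used here their reads cannot be fully separated.

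Klhl30 (chromosome 1, 91351073 to 91362404), also made mainly in muscle, gave the smallest adjusted p of the family. It was at 57.4, 74.1 and 57.8 CPM in Normal, 28.6, 25.3 and 30.6 in Control and 34.1 and 49.4 in RP. Again the Control libraries were all below the Normal ones and both RP libraries fell in the gap. Means were 63.1 ± 9.54 CPM in Normal and 28.2 ± 2.69 in Control (SD, n = 3 each), a log2 difference of -1.16 (SE 0.174, adjusted p = 0.0012). The calls of Klhl30 and Klhl38 held whichever 1 library was left out.

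Klhl40 (chromosome 9, 121777499 to 121791200) encodes a protein that binds and stabilises nebulin and leiomodin-3, both parts of the thin filament. It was at 573, 324 and 221 CPM in Normal, 133, 174 and 121 in Control and 218 and 370.3 in RP. The Normal libraries were spread widely, yet the lowest of them lay above the highest Control library. RP replicate 1 lay between the groups and RP replicate 2 within Normal. The log2 difference was -1.39 (SE 0.300, adjusted p = 0.0105). Without Control replicate 1 the adjusted p was 0.0559, and without Control replicate 3 it was 0.0666, with log2 changes of -1.34 and -1.28. An exon of Gm47108 on the opposite strand overlaps the gene.

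Klhl31 (chromosome 9, 77636732 to 77660125), a striated-muscle adaptor known to act on filamin C, changed the other way. It was at 222, 296 and 334 CPM in Normal, 475, 529 and 431 in Control and 572 and 460.3 in RP. Every Control and RP library lay above every Normal library. The means were 284 ± 56.8 in Normal and 478 ± 49.3 in Control (SD, n = 3 each), with a log2 difference of 0.75 (SE 0.173, adjusted p = 0.0147). Without Control replicate 1 its adjusted p was 0.0612 and without Control replicate 2 it was 0.0702.

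Kbtbd13 (chromosome 9, 65388684 to 65391652, reverse strand), whose product binds actin filaments, was likewise higher in Control. Its level was 8.37, 16.5 and 11.7 CPM in Normal, 20.6, 22.8 and 26.7 in Control and 24.6 and 21.0 in RP. Both RP libraries fell within the Control range, above all Normal libraries. The log2 change Control minus Normal was 0.94 (SE 0.225, adjusted p = 0.0178), and without Control replicate 3 it was 0.84 with an adjusted p of 0.0907.

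Klhl41 (chromosome 2, 69670120 to 69684239), another partner of nebulin, did not pass. It was at 484, 402 and 428 CPM in Normal, 322, 401 and 313 in Control and 421 and 426 in RP. The groups did not overlap, but the lowest Normal and the highest Control value, 401.9 and 401.2 CPM, were nearly equal. The log2 change was -0.34 (SE 0.148, adjusted p = 0.163). The annotated 3' end of Klhl41 shares a stretch of up to 152 bases with 409 other genes, so that a short read from it may be counted for another gene. The remaining muscle members overlapped between groups: Klhl34 had a log2 difference of -0.11 (SE 0.355, adjusted p = 0.876), and Kbtbd12, at 0.485 to 2.16 CPM over the 8 libraries, had 0.29 (SE 0.548, adjusted p = 0.784).

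**Figure D2:**
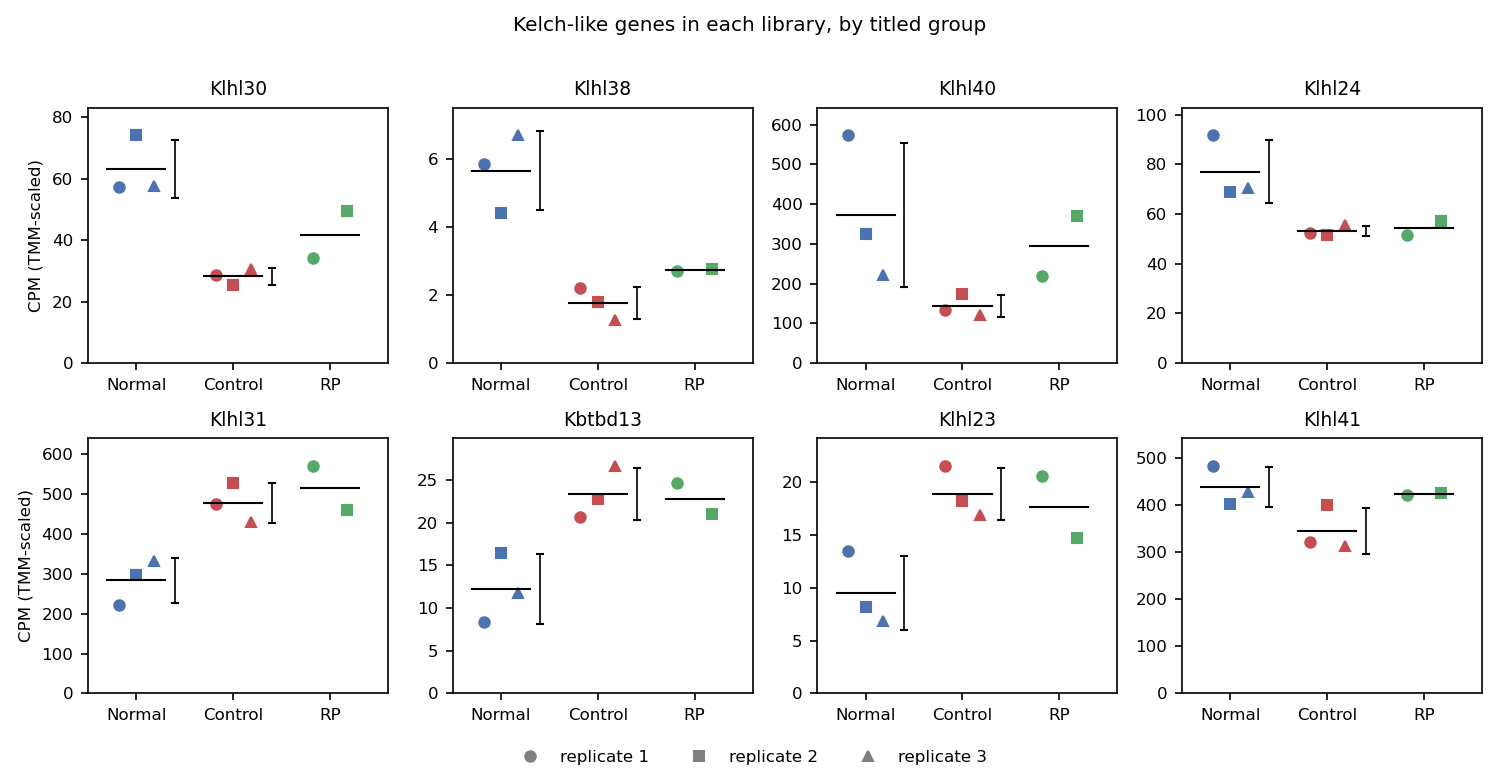
TMM-scaled CPM (vertical axis, from 0) of 8 members in each library, by titled group; marker shape is the replicate number, the line is the group mean and the bar beside Normal and Control is the SD (n = 3). Klhl30, Klhl38, Klhl40 and Klhl24 are lower in all Control than in all Normal libraries, Klhl31, Kbtbd13 and Klhl23 are higher, and Klhl41 is nearly level at 401.9 and 401.2 CPM where the groups meet.

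The opposite movement of Klhl31 and Klhl40, which lie on the same chromosome, was also read as a ratio within each library, which needs no scaling between libraries. There were 0.387, 0.915 and 1.51 Klhl31 counts per Klhl40 count in the Normal libraries, 3.57, 3.05 and 3.56 in Control, and 2.62 and 1.24 in RP. Every Control library lay above every other library. RP replicate 1 lay between the groups and RP replicate 2 within the Normal range. For Klhl31 per Klhl41 count the ratios were 0.459, 0.738 and 0.780 in Normal, 1.48, 1.32 and 1.38 in Control, and 1.36 and 1.08 in RP. These pairs were chosen after their values were seen, so no test is given. The ratios are read across libraries only, since counts of different genes also differ by how well each 3' end is captured.

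**Figure D3:**
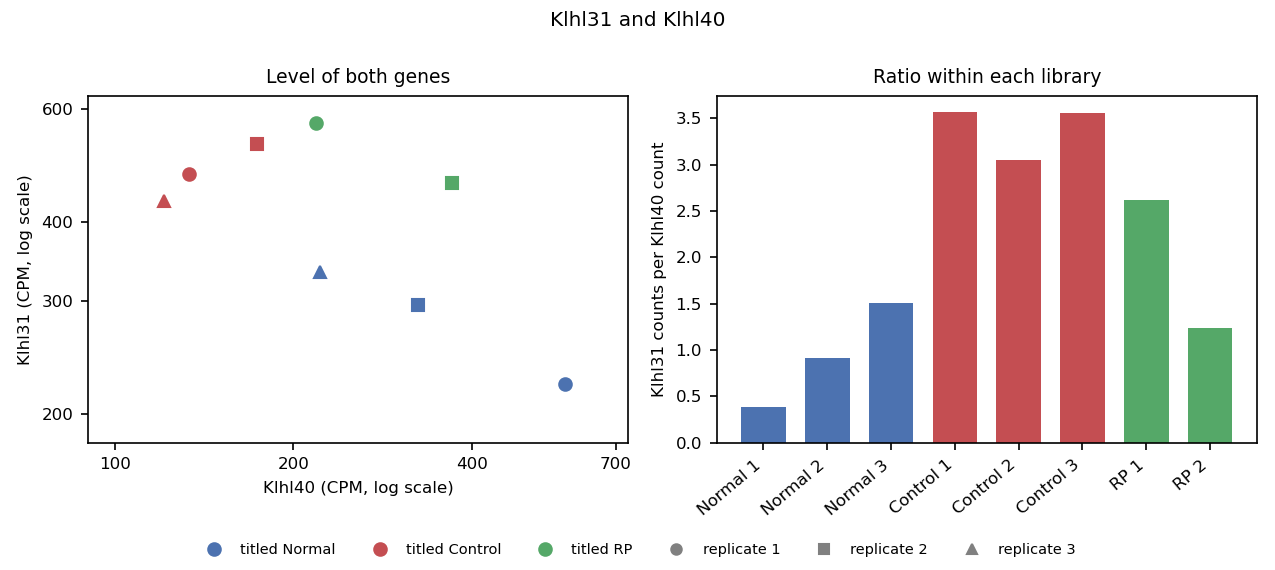
Left, Klhl31 against Klhl40 in CPM (both axes logarithmic), 1 point per library, coloured by titled group with the replicate number as marker shape; right, Klhl31 counts per Klhl40 count in each library (bars from 0). Control ratios are 3.05 to 3.57, above Normal at 0.387 to 1.51 and RP at 1.24 and 2.62.

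The sequences before the start of 4 muscle members are shown because these genes differ in direction: Klhl40 lower in Control, Klhl31 and Kbtbd13 higher, Klhl41 not called. Each runs 5' to 3' on the gene's own strand, from RefSeq GRCm38.p6, and ends at the base before the annotated gene; capitals mark the E-box CAGCTG. The positions are chr9:121777357-121777498 on the forward strand, chr9:77636482-77636731 on the forward strand, chr9:65391653-65391902 on the reverse strand and chr2:69669870-69670119 on the forward strand. The 4 sequences are:
Klhl40: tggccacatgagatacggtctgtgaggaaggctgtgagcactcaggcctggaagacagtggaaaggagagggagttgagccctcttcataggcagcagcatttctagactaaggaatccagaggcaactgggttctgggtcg
Klhl31: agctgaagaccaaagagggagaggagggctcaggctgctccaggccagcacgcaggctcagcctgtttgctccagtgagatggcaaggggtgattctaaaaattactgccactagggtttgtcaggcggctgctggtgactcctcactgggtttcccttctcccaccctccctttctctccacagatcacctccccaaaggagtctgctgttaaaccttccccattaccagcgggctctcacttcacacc
Kbtbd13: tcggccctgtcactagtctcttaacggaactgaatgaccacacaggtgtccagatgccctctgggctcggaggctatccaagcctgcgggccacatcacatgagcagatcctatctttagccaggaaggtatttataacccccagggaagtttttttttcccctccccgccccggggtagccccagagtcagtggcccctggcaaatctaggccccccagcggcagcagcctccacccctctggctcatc
Klhl41: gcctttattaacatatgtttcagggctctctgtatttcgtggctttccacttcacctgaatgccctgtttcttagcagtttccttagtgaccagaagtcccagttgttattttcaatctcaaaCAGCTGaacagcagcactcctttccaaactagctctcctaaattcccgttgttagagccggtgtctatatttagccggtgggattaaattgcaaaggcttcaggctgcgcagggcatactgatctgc
GC content was 54.2% over the 142 bases shown for Klhl40, and 56.4, 58.8 and 45.2% over the 250 bases of Klhl31, Kbtbd13 and Klhl41.

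Promoter windows of 250 bases before to 50 after the start were found for 31 of the 37 tested members. Klhl30, Klhl38 and Klhl24, all lower in Control, were among those without a window, so they were not searched. The E-box CAGCTG, the site that muscle regulators of the MyoD family can bind, was in the windows of 8 of those 31 members: Klhl41, Klhl21, Klhl5, Klhl40, Klhl6, Klhl13, Klhl4 and Klhl34. By windows it was in 9 of 42 (21.4%), against 16.3% of all 32851 windows. In Klhl40 it lay 10 to 5 bases before the start of the window's transcript, past the end of the stretch shown, and in Klhl41 127 to 122 bases before. The FoxO site GTAAACA was in 0 of 42 member windows and in 3.65% of all windows. The glucocorticoid response element (arms AGAACA and TGTTC with 3 bases between them) was in 0 of 42, against 0.0487% of all. Both strands were searched, and a match or its lack is a description of these letters only.

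Among the 8 broadly expressed members listed, 1 was lower in Control and 0 were higher, beside 5.45 and 4.99% of all genes. Their median log2 change was -0.30. Klhl24 (chromosome 16, 20097553 to 20129226), an adaptor known for degrading keratin in skin, was the 1 that passed. It was at 91.8, 69.1 and 70.5 CPM in Normal, 52.6, 51.6 and 55.6 in Control and 51.7 and 57.3 in RP. The Control libraries lay close together and below every Normal library, with RP replicate 1 inside the Control range and RP replicate 2 between the groups. The log2 change was -0.53 (SE 0.147, adjusted p = 0.0354). This call was lost without Normal replicate 1, Normal replicate 2 or any Control library, with adjusted p-values from 0.0502 to 0.136, and with upper-quartile scaling (0.0519).

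Klhl21, which acts in cell division, was at 188, 217 and 218 CPM in Normal, 167, 148 and 162 in Control and 210.5 and 205 in RP. The Control libraries were the 3 lowest, with a log2 difference of -0.39 (SE 0.135, adjusted p = 0.0872). Klhl9 and Klhl13 are its partners in that role: Klhl9 had -0.38 (SE 0.174, adjusted p = 0.191) and Klhl13 had 0.76 (SE 0.247, adjusted p = 0.0706). Klhl13 was at 7.92, 8.81 and 6.89 CPM in Normal and 18.8, 10.4 and 10.7 in Control, where Control replicate 1 stood above the other 2. Its groups did not overlap, in the direction opposite to Klhl21 and Klhl9. Klhl20, an adaptor acting on the tumour suppressor PML and on kinases of autophagy and cell death, was at 9.54, 7.28 and 7.38 CPM in Normal and 13.7, 11.3 and 13.7 in Control, with 0.68 (SE 0.216, adjusted p = 0.0648).

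Klhl22, which acts on DEPDC5 in amino acid sensing, had -0.47 (SE 0.185, adjusted p = 0.123) on the log2 scale. Kbtbd2, which removes the p85 subunit of PI3 kinase in insulin signalling, had -0.23 (SE 0.160, adjusted p = 0.399). Klhl12, the adaptor of the COPII coat protein SEC31, had 0.07 (SE 0.167, adjusted p = 0.837). None of these 3 passed.

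Klhl23 (chromosome 2, 69821941 to 69836651) is on neither list and lies 137.7 kb from Klhl41. It was at 13.5, 8.23 and 6.89 CPM in Normal, 21.6, 18.2 and 16.9 in Control and 20.6 and 14.7 in RP. All Control and RP libraries lay above all Normal libraries. The log2 change was 0.98 (SE 0.246, adjusted p = 0.0226), and the call was lost without Normal replicate 2 or 3 or any Control library, with adjusted p-values from 0.0503 to 0.104.

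The other 20 tested members did not pass in this comparison. Their log2 changes ran from -0.62 for Kbtbd8 to 1.08 for Klhl29. Klhl29 was at 2.88, 2.39 and 1.26 CPM in Normal and 6.00, 4.00 and 3.89 in Control, without overlap, and its adjusted p was 0.13. Klhl7, at 61.3, 50.6 and 54.6 CPM in Normal and 45.0, 36.0 and 39.0 in Control, was nearest to the threshold, with -0.47 (SE 0.153, adjusted p = 0.0675). Klhl8 had almost the same mean in both groups, 37.4 CPM in Normal and 37.2 in Control, but ran from 21.4 to 49.0 CPM among the Normal libraries.

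**Figure D4:**
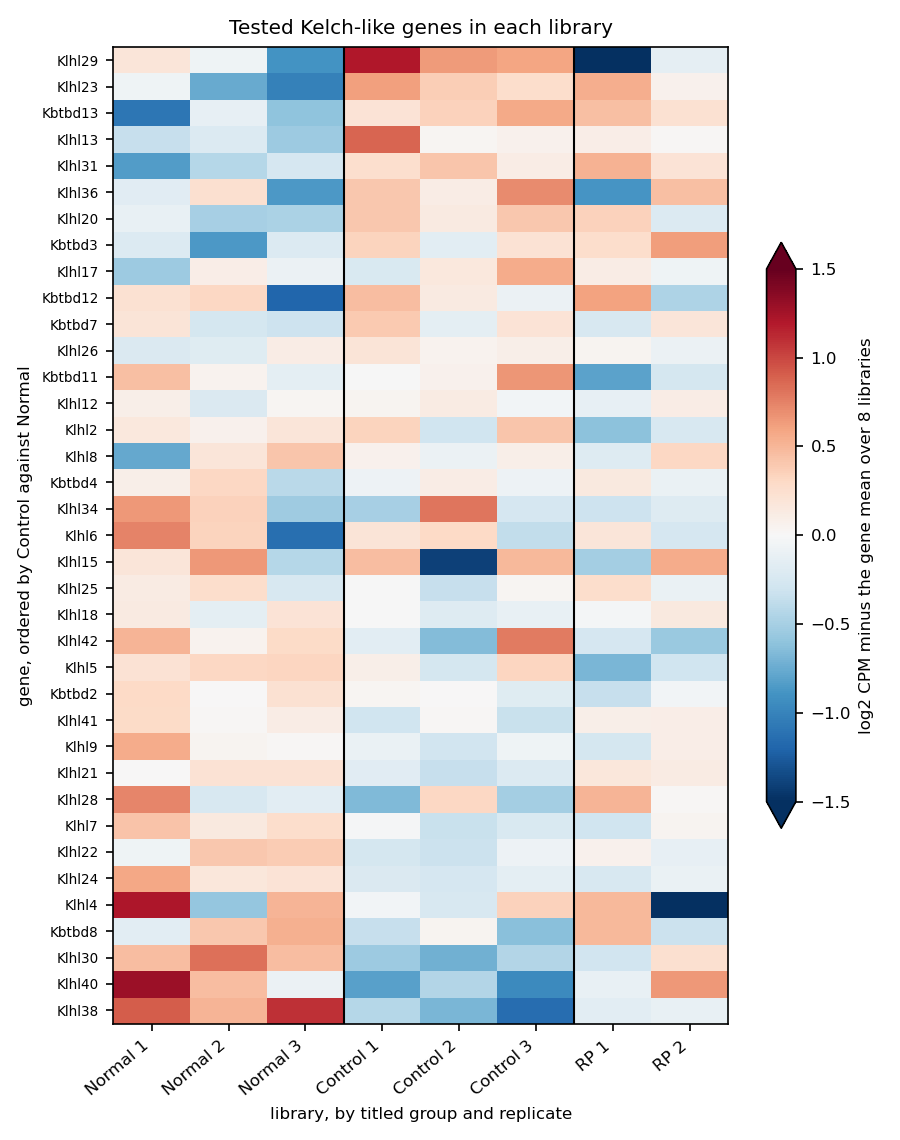
Log2 CPM of each tested member minus its own mean over the 8 libraries (colour; red above, blue below, capped at 1.5), with genes on the vertical axis ordered by Control against Normal and libraries on the horizontal axis. The bottom rows, Klhl30, Klhl40 and Klhl38, are red in Normal (Klhl40 near 0 in Normal replicate 3) and blue in Control; Klhl31 and Kbtbd13 near the top run the other way, and rows such as Klhl4 and Klhl15 vary within a group.

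Of the 37 tested members, all 37 reached the filter's cut of 0.978 CPM in at least 2 libraries of Normal and of Control, and 32 did so in RP. The 5 that did not in RP were Klhl29, Kbtbd12, Klhl36, Klhl15 and Klhl4. Spread between replicates, as the median SD of log2 CPM, was 0.302 for members and 0.285 for all genes in Normal, 0.256 and 0.180 in Control, and 0.255 and 0.188 in RP. The median SE of a member's log2 change was 0.233 for Control against Normal, 0.262 for RP against Control and 0.263 for RP against Normal.

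The 9 members that failed the filter had few reads or none. Klhl33, a muscle member, had 27 counts over all 8 libraries, Klhl11 had 20 and Klhl10 had 19. Klhl32 had 5, Kbtbd6 had 4, and Klhl14 and Klhl35 had 3 each. Klhl3, the adaptor of WNK kinases in the kidney, and Klhl1 had 0 counts, where 3 counts correspond to 0.265 to 0.323 CPM in a library. No difference between groups was detectable for these 9 at this depth.

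If the titles hold, the comparison of RP with Control sets extract against water in tumour-bearing mice. By edgeR's quasi-likelihood test 0 of the 37 members passed, against 0.175% of all genes (0.144% higher and 0.0304% lower). The smallest adjusted p was 0.326, and 6 members had an unadjusted p under 0.05 (Klhl30, Klhl29, Klhl21, Klhl5, Klhl2 and Klhl40). DESeq2 and limma-voom also called 0 members, and 0.85 and 0.0759% of all genes. The median log2 change was -0.03 for members and -0.0038 for all genes. In 9 members (24.3%) the groups did not overlap, against 31.7% of all genes: 5 were higher in both RP libraries (Klhl30, Klhl38, Klhl41, Klhl21 and Klhl40; 15.3% of all genes) and 4 lower (Klhl29, Klhl5, Kbtbd11 and Klhl26; 16.4%).

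For the muscle members the RP minus Control values, none of them past the threshold, were as follows. Klhl40 had 1.04 (SE 0.326, adjusted p = 0.326), Klhl38 had 0.63 (SE 0.390, adjusted p = 0.677) and Klhl30 had 0.57 (SE 0.193, adjusted p = 0.374). In the edgeR fit of the RP and Control libraries alone, the adjusted p of Klhl40 was 0.0451, and without the filter on low counts it was 0.00455. These were the only 2 of 18 alternative settings in which it passed. The shares of all genes passing in them were also larger, 0.939 and 1.14%, against 0.175%. Klhl41 had 0.29 (SE 0.165, adjusted p = 0.64), Klhl31 had 0.11 (SE 0.192, adjusted p = 0.911) and Kbtbd13 had -0.037 (SE 0.245, adjusted p = 0.982). RP against Control and Control against Normal share the Control libraries, so the values of both are given side by side only. Outside the muscle group, Klhl21 had 0.39 (SE 0.150, adjusted p = 0.46), and Klhl29, at 0.754 and 2.26 CPM in RP, had -1.60 (SE 0.520, adjusted p = 0.335).

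The 2 RP libraries differed from each other. RP replicate 1 and RP replicate 2 were at 218 and 370.3 CPM for Klhl40, and neutrophil markers, at 34.9 and 495.2 CPM in the same order, and haemoglobin, at 0.862 and 3.83% of counts, differed between them too; their part in the result was not tested.

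Against the libraries titled Normal, 1 of 37 members passed in RP (2.7%, against 2.50% of all genes), and 10 had an unadjusted p under 0.05. This was Klhl31, which was higher in RP, as were 1.67% of all genes, while 0 members and 0.835% of all genes were lower. It had a log2 difference of 0.86 (SE 0.190, adjusted p = 0.0311). It did not pass without Normal replicate 2, without any of the 3 Control libraries, or without either RP library, where adjusted p-values ran from 0.0521 to 0.31. The log2 change was 0.70 without RP replicate 1 and 1.01 without RP replicate 2. In a fit of the Normal and RP libraries alone its adjusted p was 0.127, and with the haemoglobin covariate it was 0.112.

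The groups did not overlap in 14 members (37.8%, against 30.8% of all genes). Klhl23, Kbtbd3, Kbtbd13, Klhl31 and Klhl13 were higher in both RP libraries than in every Normal library (5 members; 15.4% of all genes). Lower (9 members; also 15.4% of all genes) were Klhl30, Klhl38, Klhl24, Klhl7, Klhl5, Klhl2, Kbtbd2, Kbtbd11 and Klhl42. Kbtbd13 had 0.90 (SE 0.248, adjusted p = 0.0774), Klhl23 had 0.88 (SE 0.272, adjusted p = 0.109) and Kbtbd3, at 18.5 and 23.9 CPM in RP and 13.3, 8.42 and 13.4 in Normal, had 0.86 (SE 0.241, adjusted p = 0.0834). Klhl38 had -1.04 (SE 0.373, adjusted p = 0.164), Klhl30 had -0.60 (SE 0.195, adjusted p = 0.13), Klhl24 had -0.50 (SE 0.167, adjusted p = 0.137) and Klhl5 had -0.78 (SE 0.223, adjusted p = 0.0866). Klhl40, at -0.34 (SE 0.332, adjusted p = 0.656), and Klhl41, at -0.048 (SE 0.166, adjusted p = 0.923), overlapped with Normal. This comparison shares its Normal libraries with Control against Normal.

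Substrates and partners of Kelch adaptors were listed as 30 genes, of which 28 were tested. The values are of transcripts, and the amounts of the proteins were not measured. Between Control and Normal, 5 were lower and 1 higher, beside 5.45 and 4.99% of all genes, with a median log2 change of -0.04. Nrap, an anchoring protein of growing myofibrils that is a known target of the Klhl41 ligase, was at 655, 789 and 668 CPM in Normal, 307, 370.3 and 271 in Control and 363 and 364 in RP. Every Control and RP library lay below every Normal library, with log2 changes of -1.16 (SE 0.155, adjusted p = 0.000572) for Control and -0.95 (SE 0.177, adjusted p = 0.0122) for RP against Normal. The Control call held whichever 1 library was left out. The RP call was lost without Normal replicate 2 (adjusted p = 0.0585), RP replicate 1 (0.165) or RP replicate 2 (0.0765), with only the 2 groups compared (0.0696) and with the haemoglobin covariate (0.112).

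Flnc, the filamin on which Klhl31 acts, was at 414, 268 and 138 CPM in Normal, 54.9, 107 and 71.6 in Control and 115 and 156 in RP. All Control libraries lay below all Normal libraries, the log2 change was -1.81 (SE 0.334, adjusted p = 0.00436), and the call held whichever 1 library was left out. The Flnc transcript changed in the direction opposite to the Klhl31 transcript in the same libraries. This does not show whether the adaptor acted on the protein. Lmod2, a leiomodin of the thin filament, was at 370.2, 401 and 276 CPM in Normal, 141, 258 and 136 in Control and 289.5 and 239 in RP, with -0.97 (SE 0.235, adjusted p = 0.0197) for Control against Normal. That call was lost without Normal replicate 2, Control replicate 1 or Control replicate 3, with adjusted p-values from 0.0843 to 0.108, and with the haemoglobin covariate (0.0977). The related Lmod3, a partner of Klhl40, had 0.23 (SE 0.170, adjusted p = 0.419), and Neb, which encodes nebulin, had -0.34 (SE 0.176, adjusted p = 0.24): neither passed.

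**Figure D5:**
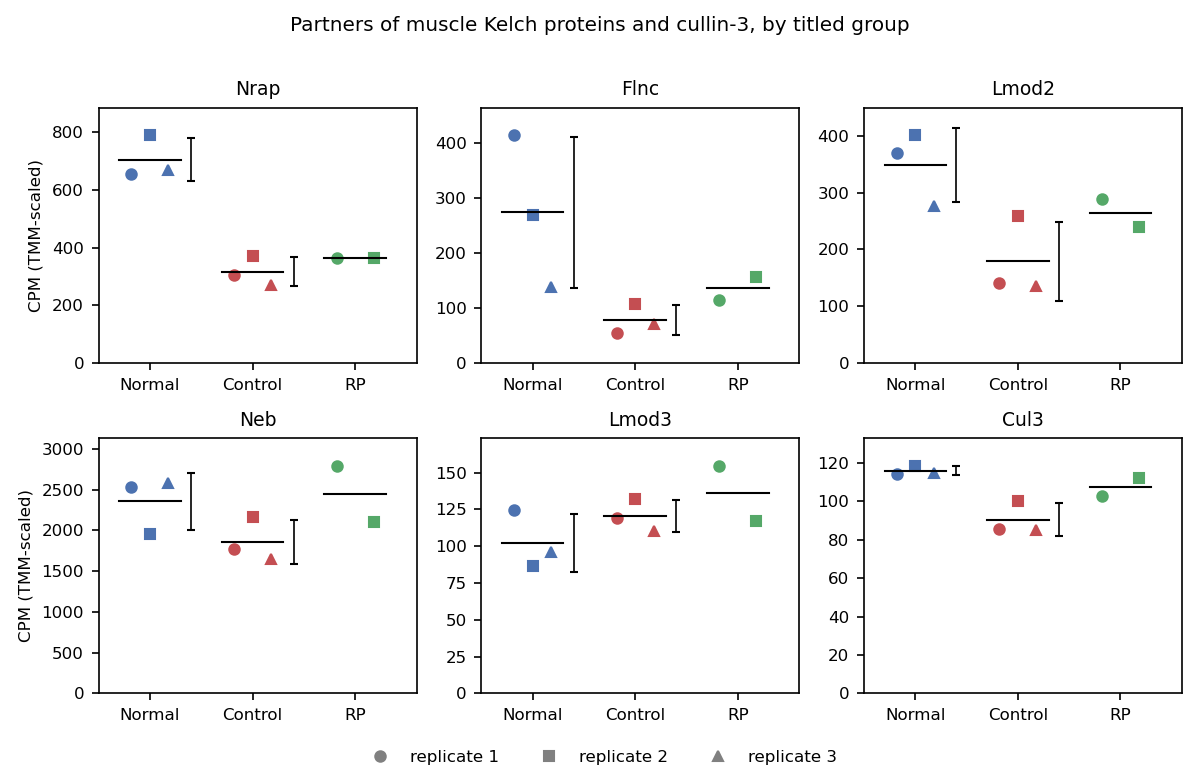
TMM-scaled CPM (vertical axis, from 0) of 5 filament partners of muscle Kelch proteins and of Cul3 in each library, by titled group; marker shape is the replicate number, the line is the group mean and the bar beside Normal and Control is the SD (n = 3). Nrap, Flnc and Lmod2 are lower in all Control than in all Normal libraries, with Nrap at 363.2 and 363.8 CPM in RP, while Neb and Lmod3 overlap.

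Pik3r1, which encodes the p85 subunit removed through Kbtbd2, had -0.95 (SE 0.228, adjusted p = 0.0184). Gabarapl1, one of the autophagy proteins bound by the Kbtbd6 and Kbtbd7 adaptors, had -0.70 (SE 0.178, adjusted p = 0.0241). Tiam1, an activator of Rac that those 2 adaptors remove, had 1.11 (SE 0.330, adjusted p = 0.0484). Each of these 3 calls was lost without Control replicate 1, 2 or 3, those of Gabarapl1 and Tiam1 also without Normal replicate 2 and that of Tiam1 also without either RP library (adjusted p-values from 0.0561 to 0.148). Tiam1 also did not pass with a minimum mean CPM of 5 (adjusted p = 0.0548), with only the 2 groups compared (0.0643) or with the haemoglobin covariate, where its log2 change was 0.27 (adjusted p = 0.804). Over the list, 2 to 3 genes passed without Normal replicate 2 or any 1 Control library, where 6 had passed. The share of all genes passing was 4.65 to 6.44% in those fits, where it had been 10.4%. RP against Control gave 0 calls in the list (3 with an unadjusted p under 0.05), and RP against Normal gave 1, Nrap. Of all genes, 0.175 and 2.50% passed in these comparisons.

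For the ligase these adaptors join, transcripts of 24 genes were tested. They include genes of cullin-3, its RING partner, the neddylation enzymes that switch it on and the COP9 signalosome that switches it off. Nedd8, Senp8, Cand1 and Cand2 are also among them. Protein amounts and the activity of the ligase were not measured. By edgeR 0 of the 24 passed in each of the 3 comparisons. For Control against Normal, RP against Control and RP against Normal, 4, 1 and 1 had an unadjusted p under 0.05. In the same order, 10.4, 0.175 and 2.50% of all genes tested passed the adjusted threshold. The median log2 change Control minus Normal was -0.01. DESeq2 called 1 for Control against Normal, and 3 passed in edgeR without Normal replicate 1, where 12.8 and 14.2% of all genes did. Cul3 itself was at 114, 119 and 115 CPM in Normal, 85.4, 100.2 and 85.2 in Control and 103 and 112 in RP. Its Control libraries were the 3 lowest, with a log2 difference of -0.36 (SE 0.134, adjusted p = 0.104), and Rbx1, the RING partner, had 0.13 (SE 0.160, adjusted p = 0.646).

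Other BTB adaptors of cullin-3, 21 of them tested, gave 0 calls by edgeR in each comparison, with 1, 0 and 0 at an unadjusted p under 0.05. The shares of all genes passing by edgeR were 10.4% for Control against Normal, 0.175% for RP against Control and 2.50% for RP against Normal. DESeq2 called 1 of the 21 for Control against Normal, and 12.8% of all genes. Their median log2 change Control minus Normal was 0.05. Among 4 tested Kelch proteins with other symbols, 1 passed for Control against Normal, where 10.4% of all genes did. This was Enc1, an actin-binding member, lower in Control at -0.91 (SE 0.243, adjusted p = 0.0311). It was at 10.1, 14.1 and 9.41 CPM in Normal, 5.38, 5.60 and 6.87 in Control and 7.44 and 5.35 in RP, without overlap between Control and Normal. The call was lost without Normal replicate 2 or any Control library, with adjusted p-values from 0.0657 to 0.131, and with the haemoglobin covariate (0.132). Keap1, the adaptor that removes the antioxidant factor NRF2, had -0.48 (SE 0.154, adjusted p = 0.0673).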

How the data were processed

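Gastrocnemius RNA was measured in 8 libraries: 3 Normal, 3 Control and 2 RP, grouped by sample title. The authors deposited raw read counts per gene symbol, 1 table per library. Per the submitters' processing notes, Bowtie2, edgeR and build mm10 were used, without versions; the counting tool, the strand counted and the annotation are not given in the sources used here. Totals were 9528011 to 12333767 counts per library. Floors cover counting error only, since reads are not independent molecules.

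For testing, edgeR 4.0.16 under R 4.3.3 was applied to the counts (2-sided quasi-likelihood test, TMM scaling, all 8 libraries in 1 fit, Benjamini-Hochberg adjustment over 13174 genes, threshold 0.05). Genes needed 0.978 CPM, or 10 counts at the median library, in at least 2 libraries (filterByExpr). The common biological coefficient of variation was 0.195. Counts at an unadjusted p under 0.05 are given without the share of all genes at that level, so they are descriptive only. The SE is the log2 change divided by the square root of the test's F. The pipeline was tested on simulated data. Alternatives were RLE and upper-quartile scaling, testing without a filter or with a minimum mean CPM of 5, limma-voom (limma 3.58.1) and DESeq2 1.42.0. Further ones were a fit of only the 2 groups compared, a replicate block, a threshold of 0.1, and leaving out each library. Another had the log2 of summed haemoglobin CPM (7 genes) as a covariate. The same alternatives for the partner genes were chosen after seeing the data.

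Members, gene lists and motifs were chosen with earlier results of these data known. Members past the threshold, 9 muscle and 8 broadly expressed Kelch genes were to be described in full and others by counts and ranges; up to 6 genes per other list were named, called genes first by size of change. A few further members nearest a threshold or with separated groups, the partner genes Lmod3 and Neb, which go beyond that limit, and the markers Myod1 and Vwf were named after their values were seen. Positions and promoters are from RefSeq GRCm38.p6, in which all 46 members matched. Exon overlaps are from GENCODE M21: of 36 tested members checked, 9 shared an exon stretch with another gene. Last 400 bases of transcripts were compared by blastn 2.17.0 (at least 50 bases at 95% identity or more): Kbtbd4 matched Ptpmt1, whose exon it overlaps, and Klhl41 matched many genes. Figures were drawn with matplotlib 3.10.9.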

Additional observations from a re-analysis of the deposited data

How the results depend on the processing

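For Control against Normal, the count of members higher (3) was 5 at a threshold of 0.1 and 0 with the haemoglobin covariate. The count lower (4) was 0 with the covariate. Among all genes, 16.7% passed at 0.1 and 2.35% with the covariate, against 10.4%. Other settings that kept all libraries stayed within 1.5 times. Leaving out 1 Normal or Control library gave 1 to 4 higher and 2 to 5 lower, where 4.65 to 14.2% of all genes passed. For RP against Control, members higher numbered 1 (Klhl40) without a filter and 1 with only the 2 groups compared, where 0 had passed. The shares of all genes passing were 1.14 and 0.939% in these fits, where 0.175% had passed. For RP against Normal, members higher (1) numbered 4 without a filter, 4 by DESeq2 and 3 at a threshold of 0.1, and 0 with only the 2 groups compared, with the replicate block and with the haemoglobin covariate; leaving out 1 library gave 0 to 2. Members lower in RP than in Normal (0) numbered 1 by DESeq2 and 1 at a threshold of 0.1. The causes were not tested. The shared replicate numbers are not said to pair the libraries. Over 7 same-number pairs, correlations of deviations from the group means ran from -0.196 to 0.118, and 1 exceeded 0.1. With groups this small the deviations constrain each other, so the correlations cannot settle whether libraries are paired. With the replicate block, Control against Normal gave 3 higher and 3 lower (Klhl24 did not pass), and 9.25% of all genes passed. RP against Control gave 0 members and 0.129% of all genes. Of the partner and related genes named, Enc1 did not pass in that edgeR fit (adjusted p = 0.0511). Signs were followed for members called in any comparison, and for Control against Normal also for the tested muscle and broadly expressed members listed. Among these, a sign turned only in a comparison where the member was not called. For Control against Normal, Kbtbd12 was -1.25 with the covariate, and leaving out 1 library gave -0.094 to 0.56 for Kbtbd12, -0.61 to 0.15 for Klhl34 and -0.019 to 0.13 for Klhl12. For RP against Control, Klhl23 was 0.0069 with the covariate and Kbtbd13 0.028 with the replicate block; leaving out 1 library gave -0.040 to 0.11 for Klhl24, -0.36 to 0.12 for Klhl23, -0.15 to 0.074 for Kbtbd13 and -0.054 to 0.26 for Klhl31. For RP against Normal it gave -0.77 to 0.11 for Klhl40. A fit with 1 RP library assumes that it varies as the other groups do. Depth limits the 9 untested members and those near 1 CPM.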
